A study of Mus musculus with 7 samples.

Results

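Microtubules are polymers of α- and β-tubulin, and the mouse genome holds several genes, called isotypes, for each of the pair. Of 55401 genes in the count table, 10 isotype genes were taken by name: the β genes Tubb6, Tubb2a, Tubb2b, Tubb3, Tubb4b and Tubb5 and the α genes Tuba1a, Tuba1b, Tuba1c and Tuba4a. They were picked around Tubb6, which had the largest decrease among the genes of a published hypoxia-inducible factor (HIF) signature in the same mice, so the difference between the groups is a description for them. Counts of genes past a threshold are printed beside the share of all genes, and nothing is read from them for the 10 genes. All 10 were among the 17465 genes with enough reads to be tested.

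Right lung lobes of male C57BL/6 mice, aged 6 to 8 weeks and weighing 20 to 25 g, were sequenced with 1 library per mouse. All mice received bleomycin, a cytotoxic antibiotic that scars the lung, and all lungs were taken on day 21. The BLM+HBO group (3 mice) breathed hyperbaric oxygen, which is oxygen in a pressure chamber, at 2.5 ATA for 90 min a day on 14 consecutive days from day 7, and the BLM group (4 mice) did not. The sample records place the BLM mice in the chamber without pressurised oxygen while the study's methods call them untreated, and no lung without bleomycin was compared here. The libraries held between 18157161 and 26365969 counted reads.

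Tubulin dimers assemble end to end into protofilaments, and the isotypes differ mostly in their acidic carboxy-terminal tails, which stick out from the microtubule and carry chains of glutamate added by enzymes of the tubulin tyrosine ligase-like family. Tubb3, Tubb2a, Tubb2b and Tuba1a are best known from neurons, Tubb4b from cilia, and Tubb5, Tuba1b and Tuba1c from most dividing cells, while Tubb6 is a divergent β isotype of many non-neuronal cells. In the lung, microtubules form the axonemes of ciliated airway cells and the spindles of cells that proliferate during repair.

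The coding sequences show how near these genes are to each other, which also bears on how well short reads can be assigned to them. The last 60 coding bases, stop codon included, are shown for 7 of the 10 genes, since most of the isotypes differ there. They come from GENCODE vM21 on GRCm38 and run 5′ to 3′ in the coding direction, with glutamate codons in capitals.
Tubb2a (chr13:34074468-34074527, minus strand): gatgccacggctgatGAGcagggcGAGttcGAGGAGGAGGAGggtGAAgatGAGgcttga
Tubb2b (chr13:34127471-34127530, minus strand): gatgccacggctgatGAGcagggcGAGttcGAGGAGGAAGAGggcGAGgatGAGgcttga
Tubb3 (chr8:123421623-123421682, plus strand): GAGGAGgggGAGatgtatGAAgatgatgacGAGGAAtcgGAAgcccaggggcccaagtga
Tubb4b (chr2:25222308-25222367, minus strand): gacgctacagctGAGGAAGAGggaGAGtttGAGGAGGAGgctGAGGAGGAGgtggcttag
Tubb5 (chr17:35834982-35835041, minus strand): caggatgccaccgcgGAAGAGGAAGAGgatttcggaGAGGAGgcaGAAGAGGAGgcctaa
Tuba1c (chr15:99037950-99038009, plus strand): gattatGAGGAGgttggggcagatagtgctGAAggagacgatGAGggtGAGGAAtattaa
Tuba4a (chr1:75215622-75215681, minus strand): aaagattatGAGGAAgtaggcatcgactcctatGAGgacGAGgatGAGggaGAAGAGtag

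Among the 19 codons before the stop, glutamate took 10 in Tubb4b, 9 in Tubb5, 8 in Tubb2a and Tubb2b, 7 in Tubb3 and Tuba4a and 6 in Tuba1c. The tails of Tubb2a and Tubb2b differ only at bases that leave the amino acids unchanged. The same holds for Tuba1a and Tuba1b, which are not shown, so the tails do not tell these pairs apart as proteins. Tuba1c ends in a tyrosine codon (tat) before the stop, whereas Tuba4a ends in glutamate. That tyrosine is the one which vasohibins remove and tubulin tyrosine ligase restores. All 10 genes open with codons for Met-Arg-Glu, followed by isoleucine in the 6 β genes and cysteine in the 4 α genes, which is the start of the nascent chain that tubulin autoregulation reads.

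Over the whole coding sequence, Tuba1a and Tuba1b were 98.3% identical, Tuba1b and Tuba1c 97.9%, Tuba1a and Tuba1c 97.1%, and Tubb2a and Tubb2b 96.5%. Tubb6 was between 80.2% and 85.7% identical to the other β genes, with Tubb3 the nearest. Windows of 150 bases, the length of 1 read, were then looked up in all other annotated genes. No window of the Tubb6, Tubb3 or Tubb5 transcript occurred in another gene. The share of windows found elsewhere was 16.8% for Tubb4b, 20.1% for Tubb2b, 27.9% for Tubb2a, 46.7% for Tuba1c, 54.7% for Tuba1a and 57.9% for Tuba1b, mostly in the paralogs named above, in pseudogenes and, for the α1 genes, in the readthrough gene Gm49450. Reads that fit several genes equally well were left out by the counting, so the values of the α1 genes and of Tubb2a and Tubb2b are uncertain. How many reads were lost was not measured, since the windows treat each read alone and its mate may still place it. Tuba4a shares 1379 of its 3701 exon bases with Stk16 on the opposite strand, and reads there cannot be given to either gene without strand.

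Levels were compared between genes as RPKM, which scales the read counts by gene length and by library size. The full gene length was used, so reads discarded from shared stretches lower the RPKM of the genes concerned. These are Tuba1a, Tuba1b, Tuba1c, Tuba4a, Tubb2a, Tubb2b and Tubb4b, whereas Tubb3, Tubb5 and Tubb6 share no window. The levels and their order were not corrected for this. Tubb4b, Tuba1b and Tuba1a were the most abundant, at 185 ± 34.6, 191 ± 20.5 and 184 ± 24.3 RPKM in BLM (mean ± SD, n = 4) and 205 ± 20.7, 179 ± 14.6 and 180 ± 19.2 RPKM in BLM+HBO (n = 3; all ± are SD). Tubb5 followed at 157 ± 4.10 and 129 ± 21.95 RPKM, Tubb2a at 69.1 ± 5.71 and 59.5 ± 12.2 RPKM, and Tuba1c at 46.8 ± 5.34 and 33.0 ± 5.84 RPKM in BLM and BLM+HBO. Tubb6 had 35.2 ± 6.41 and 18.9 ± 6.43 RPKM, and below it lay Tuba4a with 13.5 ± 2.05 and 13.8 ± 2.04, Tubb2b with 8.21 ± 0.872 and 6.33 ± 2.81 and Tubb3 with 4.15 ± 0.803 and 2.52 ± 2.07 RPKM. Of the isotypes best known from neurons, Tubb2b and Tubb3 were the least abundant of the 10, whereas Tuba1a was among the 3 most abundant and Tubb2a lay in the middle of the order.

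Neighbours in the order of the mean log2 level over the 7 mice were compared within each mouse. Neither Tubb4b and Tuba1b nor Tuba1b and Tuba1a differed beyond their spread, with log2 differences of 0.05 ± 0.20 and 0.03 ± 0.10 (SD, n = 7 mice; two-sided exact sign-flip permutation test, adjusted p = 0.531 and 0.475 over 9 pairs), and the first gene of each pair was the higher in 3 of 7 mice. The other 7 steps passed the test, which compared the levels as computed, without correction for discarded reads. Tuba1a lay above Tubb5 by 0.34 ± 0.23, Tubb5 above Tubb2a by 1.16 ± 0.10, Tubb2a above Tuba1c by 0.69 ± 0.18, Tuba1c above Tubb6 by 0.61 ± 0.34, Tuba4a above Tubb2b by 0.93 ± 0.62 and Tubb2b above Tubb3 by 1.33 ± 0.77 on the log2 scale, each in 7 of 7 mice (exact permutation, adjusted p = 0.0234). Tubb6 lay above Tuba4a by 0.96 ± 0.70 in 6 of 7 mice (exact permutation, adjusted p = 0.0402), and BLM+HBO 1 was the exception with 11.7 RPKM of Tubb6 and 16.1 RPKM of Tuba4a. With the length of the longest coding transcript in place of the gene length, Tuba1a and Tubb5 no longer differed (log2 difference 0.0082, exact permutation, adjusted p = 0.938), nor did Tuba1c and Tubb6 (0.34, exact permutation, adjusted p = 0.0527), whereas the steps from Tubb4b to Tuba1b and from Tuba1b to Tuba1a then passed (0.33 and 0.14, exact permutation, adjusted p = 0.0234).

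**Figure D1:**
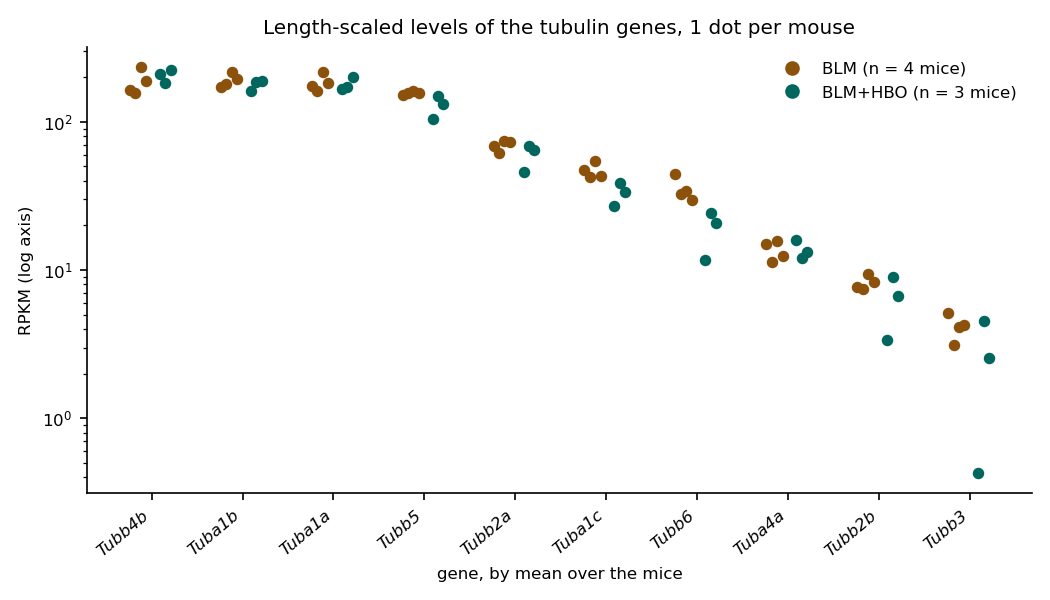
Length-scaled levels (RPKM, log axis) of the 10 genes, 1 dot per mouse, brown for BLM (n = 4) and green for BLM+HBO (n = 3), genes ordered by their mean over the mice. Tubb4b, Tuba1b and Tuba1a overlap at the top between 155.6 and 233 RPKM, and Tubb3 at the bottom reaches 0.427 RPKM in BLM+HBO 1.

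Between the groups, Tubb6 had the log2 fold change farthest from 0 in the edgeR fit. That order depended on the fit, since Tubb3 was lower in limma (-1.20 against -0.94 for Tubb6), under the replicate block (-1.04 against -1.01) and without BLM+HBO 2 (-1.44 against -1.11). The log2 fold change of Tubb6, BLM+HBO over BLM, was -0.90 ± 0.23 (SE), a decrease of 46.2%, and Tuba1c and Tubb5 were also lower in every BLM+HBO mouse than in any BLM mouse. The remaining 7 genes overlapped between the groups, and the most abundant isotypes, Tubb4b, Tuba1b and Tuba1a, had log2 fold changes of 0.15, -0.09 and -0.04. Of the 10 genes, 8 had a log2 fold change below 0, beside 48.8% of all genes tested. The median over the 10 was -0.25, and -0.09 without BLM+HBO 1.

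The study called a gene changed at a fold above 1.5 and an unadjusted P below 0.05, which was applied here in edgeR's quasi-likelihood test. Of the 10 genes 1 passed in either direction, beside 6.29% of all tested genes. It was Tubb6, in the lower direction (2.89% of all tested genes), and 0 passed in the higher direction (3.4%). Ranges that did not overlap were found for 3 of 10 genes in the lower direction, beside 4.72% of all tested genes, and for 0 in the higher direction, beside 4.05%. After Benjamini-Hochberg adjustment over all genes tested, no gene passed 0.05 in edgeR (0% of genes, with 10.7% at an unadjusted P below 0.05) or limma. DESeq2 called 1 of the 10 genes at that adjusted limit, beside 0.892% of all genes it tested. Since the genes were chosen on this contrast, these counts are no test of them. In bulk tissue, fewer cells of a type and less RNA per cell cannot be told apart.

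Tubb6, the gene at the centre of the set (ENSMUSG00000001473.7, chr18:67390717-67402749, plus strand of GRCm38) stood at 108, 79.8, 82.6 and 72.2 CPM (read counts scaled to library size) in BLM 1 to BLM 4 and at 28.5, 58.8 and 50.7 CPM in BLM+HBO 1 to BLM+HBO 3. The groups did not overlap, BLM 1 was the highest mouse and BLM+HBO 1 the lowest. The means were 85.7 ± 15.6 CPM (SD, n = 4) and 46.0 ± 15.7 CPM (SD, n = 3). The log2 fold change lay between -1.11 and -0.65 when each mouse was left out in turn, with the smallest size without BLM+HBO 1 and the largest without BLM+HBO 2. No read-length stretch of its transcript occurs in another gene, so its counts do not depend on how paralogs were resolved.

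Tuba1c (ENSMUSG00000043091.9, chr15:99029891-99038110, plus strand), an α isotype of most tissues, had 107, 97.7, 124 and 98.7 CPM in BLM 1 to BLM 4 and 61.7, 88.4 and 76.3 CPM in BLM+HBO 1 to BLM+HBO 3. All BLM+HBO mice were below all BLM mice, with BLM+HBO 1 the lowest. Its log2 fold change was -0.50 ± 0.14 (SE), under the fold threshold, and stayed between -0.63 and -0.38 without each mouse.

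Tubb5 (ENSMUSG00000001525.10, chr17:35833921-35838306, minus strand), the broadly expressed β isotype, had 504, 523, 537 and 524 CPM in the BLM mice and 349, 494 and 441 CPM in the BLM+HBO mice. The BLM values lay close together (522 ± 13.7 CPM, SD, n = 4), the BLM+HBO values were spread (428 ± 73.0 CPM, SD, n = 3), and the groups did not overlap. The log2 fold change was -0.29 ± 0.13 (SE), and -0.16 without BLM+HBO 1.

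The β isotypes best known from neurons overlapped between the groups, and each had its lowest value in BLM+HBO 1. Tubb2a (chr13:34074274-34078007) had 110.2, 98.7, 119 and 117 CPM in BLM and 73.4, 109.7 and 104 CPM in the BLM+HBO mice, a log2 fold change of -0.21 ± 0.15 (SE) that was -0.05 without BLM+HBO 1. Tubb2b (chr13:34126748-34130466) had 17.7, 17.0, 21.5 and 19.1 CPM against 7.72, 20.5 and 15.3 CPM, a log2 fold change of -0.37 ± 0.28 (SE) that was -0.07 without that mouse. For both genes, BLM+HBO 2 and BLM+HBO 3 were within or near the BLM range while BLM+HBO 1 stood well below it.

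Tubb3 (chr8:123411424-123422015), the standard marker of young neurons, had few reads, with 15 in BLM+HBO 1 and between 104 and 178 in the other mice. These were 9.53, 5.86, 7.69 and 7.90 CPM against 0.799, 8.52 and 4.80 CPM. BLM+HBO 1 was far below the other 6 mice, which overlapped, and the log2 fold change of -0.71 ± 0.56 (SE) ranged from -1.44 to -0.22 as single mice were left out. The neuron and Schwann cell markers were near the detection limit in all mice: 8 of 12 stayed below 1 CPM in every mouse, and their summed level was 11.3 to 18.2 CPM in BLM and 9.94 to 15.8 CPM in BLM+HBO.

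Tubb4b (ENSMUSG00000036752.4, chr2:25222160-25224702, minus strand), which builds ciliary axonemes besides cytoplasmic microtubules, was the β gene with a log2 fold change above 0. It had 344, 325, 487 and 391 CPM in BLM and 437, 381 and 466 CPM in the BLM+HBO mice, a log2 fold change of 0.15 ± 0.16 (SE). The groups overlapped: BLM 3 was the highest of all mice, and BLM 4 at 391 CPM also lay above BLM+HBO 2 at 381 CPM. The 3 mice with the most Tubb4b, BLM 3, BLM+HBO 3 and BLM+HBO 1, were also the 3 with the highest summed level of 12 ciliated cell markers, at 665, 667 and 679 CPM, where the other 4 mice had between 346 and 449 CPM. All 12 of those markers, led by Foxj1 and Tppp3, had a log2 fold change above 0. Of them, 2 passed the study's thresholds in the higher direction, beside 3.4% of all tested genes. Their part in the Tubb4b values was not tested.

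The other α genes had small log2 fold changes. Tuba1a (chr15:98949837-98953703) had 314, 291, 393 and 329 CPM in BLM and 300.2, 307 and 363 CPM in the BLM+HBO mice, a log2 fold change of -0.04 ± 0.14 (SE). Tuba1b (chr15:98931425-98934565) had 319.8, 338, 408 and 365 CPM against 305, 350.5 and 354 CPM, a log2 fold change of -0.09 ± 0.12 (SE). Both lie within the tubulin cluster on chromosome 15 that also holds Tuba1c, and the groups overlapped for both.

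Tuba4a (chr1:75214228-75219865), the α isotype made without the terminal tyrosine, had 55.2, 41.8, 57.7 and 45.8 CPM in BLM and 59.5, 44.9 and 48.7 CPM in BLM+HBO. BLM+HBO 1, the lowest mouse for 7 of the 10 genes, was the highest for this one. Its log2 fold change was 0.02 ± 0.15 (SE). BLM 3 was in turn the highest mouse for 7 of the 10 genes.

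**Figure D2:**
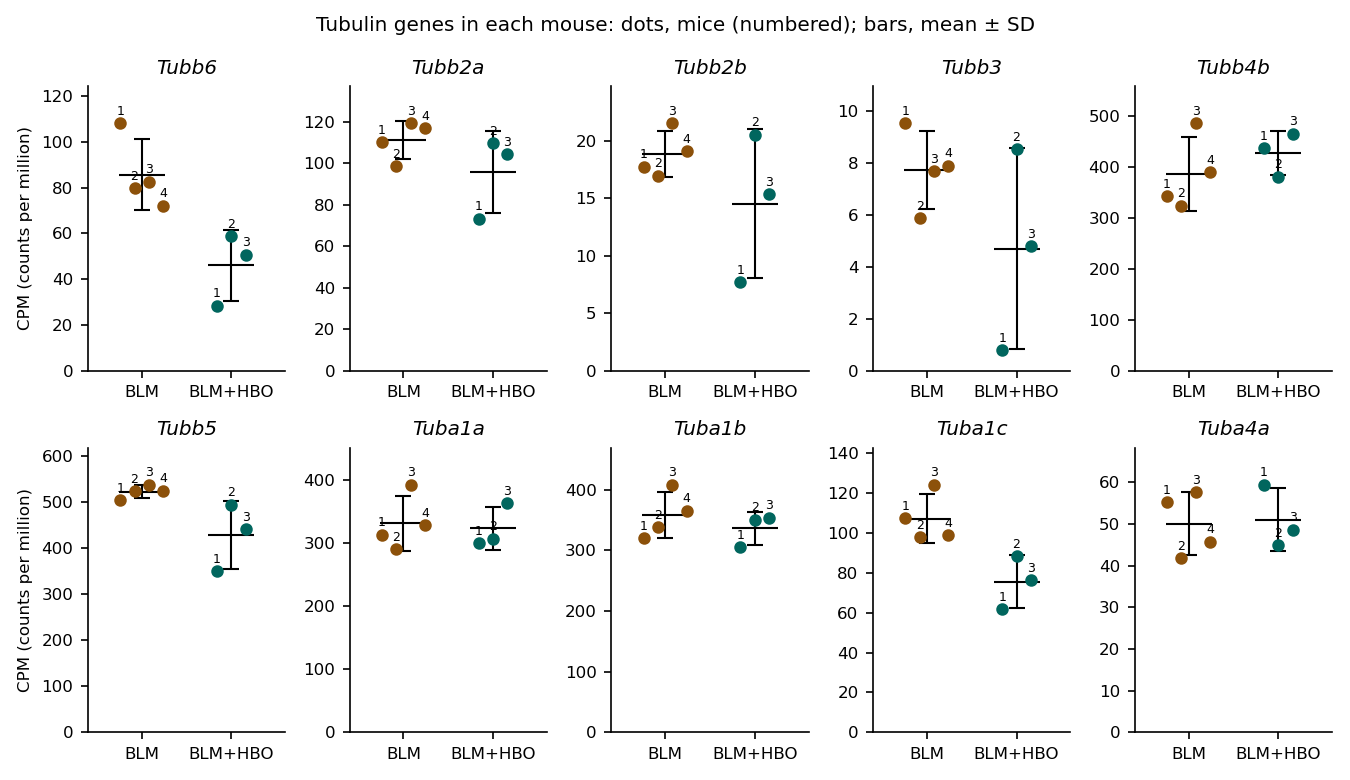
Library-size scaled counts (CPM) of each gene in BLM (brown, n = 4) and BLM+HBO (green, n = 3), 1 numbered dot per mouse, with mean and SD as bars and each axis starting at 0. Tubb6, Tubb5 and Tuba1c show no overlap between the groups, and BLM+HBO 1 is the lowest dot in 7 of 10 panels.

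**Figure D3:**
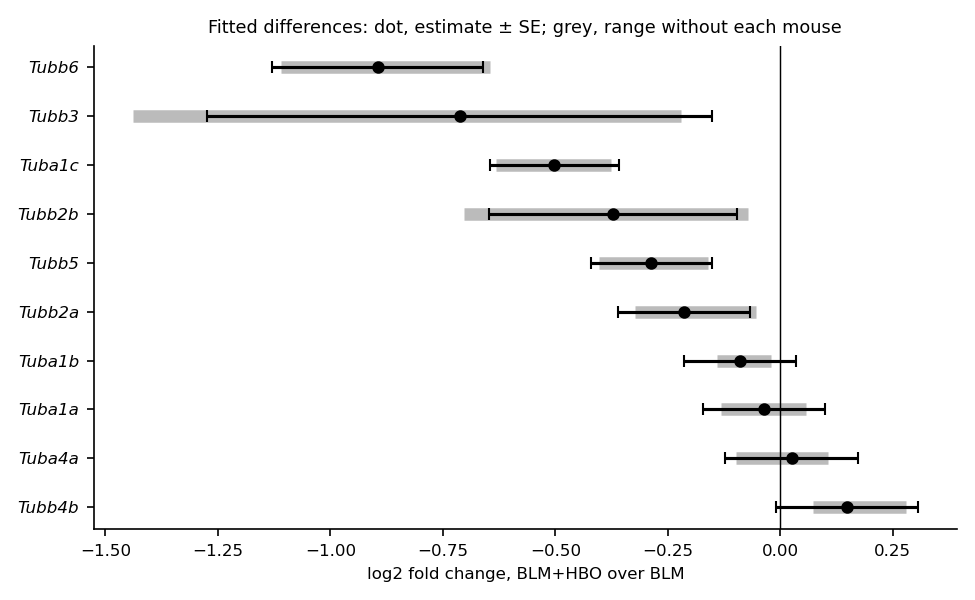
Fitted log2 fold change of BLM+HBO over BLM for each gene (dot) with its SE (black bar) and the range of estimates when each mouse was left out in turn (grey bar). Tubb6 stayed between -1.11 and -0.65, while Tubb3 ranged from -1.44 to -0.22.

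The makeup of the tubulin pool was described by the share of each gene in the summed RPKM of the β or the α genes. The lowering for genes with shared stretches carries over to shares, sums and the ratio of the sums, and it need not be equal between the families. Windows found elsewhere made up 46.7% to 57.9% of the α1 transcripts and 16.8% to 27.9% of Tubb4b, Tubb2b and Tubb2a. No window of Tubb3, Tubb5 or Tubb6 was shared. Tubb6 made up 10.04%, 7.85%, 6.57% and 6.45% of the β sum in BLM and 3.12%, 5.53% and 4.62% in BLM+HBO, that is 7.73% ± 1.67 against 4.42% ± 1.22 (SD, n = 4 and 3), with every BLM+HBO mouse lower. Tuba1c made up 10.8% ± 0.647 of the α sum in BLM and 8.12% ± 1.18 in BLM+HBO, also without overlap. The largest β share, Tubb4b, was 40.1% ± 3.74 in BLM and 49.0% ± 7.00 in BLM+HBO, and Tubb5 had 34.4% ± 2.60 and 30.4% ± 3.14, both with overlap.

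The sums themselves moved less than these shares. The β sum was 459 ± 42.0 RPKM in BLM and 421 ± 39.98 RPKM in BLM+HBO, the α sum 435 ± 49.4 and 406 ± 32.4 RPKM, and both overlapped between the groups. The ratio of the α to the β sum was 0.948 ± 0.0245 and 0.965 ± 0.0285, with single mice between 0.920 and 0.991. Since the α1 genes share the most sequence and reads lost there were not corrected for, the ratio is not a measure of balance between the families. The 10 genes took between 0.168% and 0.221% of all counts.

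**Figure D4:**
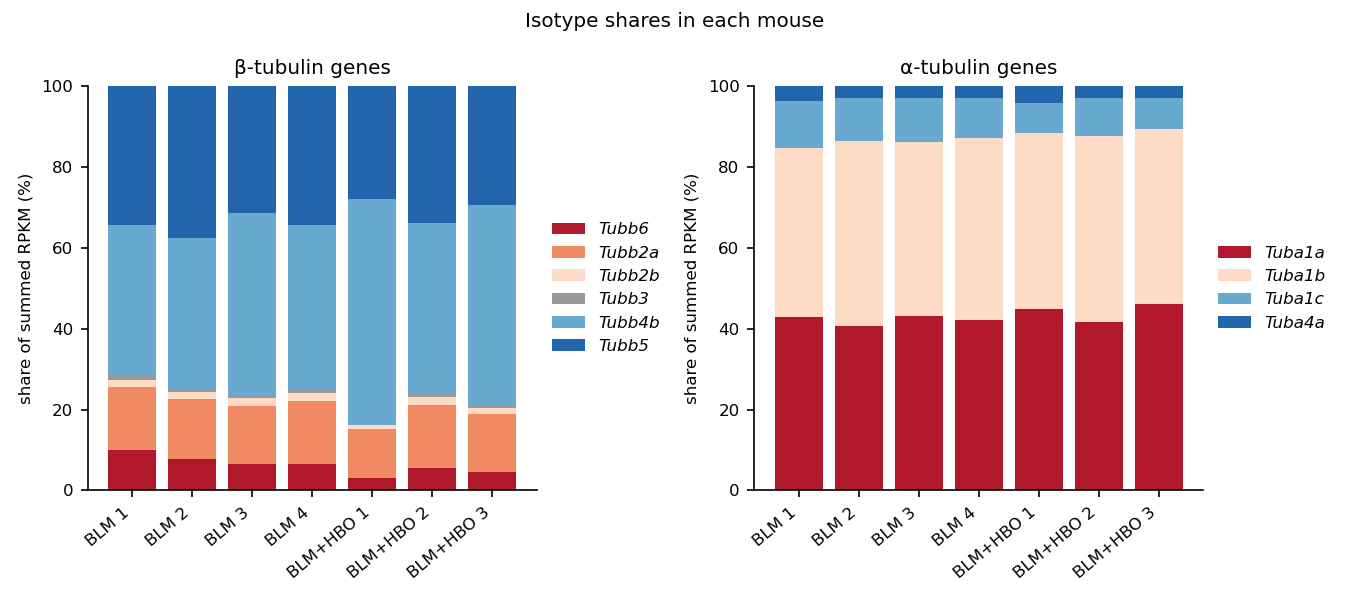
Share (%) of each gene in the summed RPKM of the 6 β-tubulin genes (left) and the 4 α-tubulin genes (right), 1 stacked bar per mouse. The red Tubb6 segment spans 6.45% to 10.04% in BLM and 3.12% to 5.53% in BLM+HBO.

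Profiles over the 7 mice were compared as log2 CPM centred on each gene's own mean, by the root mean square (RMS) difference. Of 12562 other genes with a mean of at least 5 CPM, those nearest to Tubb6 were Pgf (placental growth factor, RMS 0.0984), Snai1 (an epithelial-mesenchymal transition factor, 0.111), Olfml2b (an extracellular olfactomedin-domain protein, 0.119), Col12a1 (collagen XII, 0.121) and Pheta2 (an endosomal trafficking protein, 0.134), where the median gene was at 0.597. Pgf had 31.2, 25.5, 23.5 and 22.9 CPM in BLM and 9.16, 20.6 and 15.04 CPM in BLM+HBO, with BLM 1 the highest and BLM+HBO 1 the lowest mouse, as for Tubb6. The list rested on that low mouse, since none of the 5 genes was among the nearest 5 without BLM+HBO 1.

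No tubulin came as close to Tubb6. The nearest tubulins were Tuba1c at 0.316 and Tubb2b at 0.328, and Tubb4b was the farthest at 0.693. The tightest pairs among the tubulins were Tuba1a with Tuba1b (0.0899), Tubb2a with Tubb5 (0.0943) and Tubb4b with Tuba1a (0.128). The difference is not scaled to each gene's spread, so genes that vary little lie near each other whatever their pattern. The SD of log2 CPM within groups was 0.17 for Tuba1a and 0.14 for Tuba1b, against 0.40 for Tubb6. Genes of 1 library share its depth and cell makeup, and the α1 genes share sequence.

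Several marker lists moved alongside Tubb6 in these mice. Over all tested genes, 2.89% were called lower and 3.4% higher, and the lists were chosen with earlier results of these data known. Of 12 myofibroblast markers, 6 passed the thresholds lower in BLM+HBO and 0 higher, and their sum was 12046 to 17725 CPM in BLM and 2997 to 11657 CPM in BLM+HBO, lowest in BLM+HBO 1. Of 12 proliferation markers, 3 were called lower and all 12 had log2 fold changes below 0, with sums of 270.0 to 322 and 152 to 299.7 CPM. Of 12 macrophage markers, 7 were called lower, with sums of 2032 to 3636 and 1375 to 2352 CPM. Heart muscle markers were called higher in 10 of 11 tested (72.8 to 196 CPM in BLM, 172 to 738 CPM in BLM+HBO), and 2 of 12 lung epithelial and endothelial markers were called higher (16513 to 30055 and 23357 to 48443 CPM), so the defining markers of lung were present in every mouse. Their part in the tubulin values was not tested.

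The other tubulin genes had few reads, and 5 of the 7 tested had log2 fold changes above 0. Of 10 listed, 1 was called higher (3.4% of all tested genes) and 0 lower (2.89%). The median log2 fold change was 0.10, beside 0.0071 over all genes tested. Leaving out BLM+HBO 1, BLM 1 or BLM 2 raised that median to 0.20, 0.19 and 0.18. Tuba8, an α isotype of muscle and other tissues, had 4.52, 5.58, 6.53 and 5.95 CPM in BLM and 9.26, 5.93 and 10.5 CPM in the BLM+HBO mice, a log2 fold change of 0.60 ± 0.24 (SE; edgeR adjusted P = 0.442). The groups overlapped at BLM+HBO 2, and the call was lost without BLM 1, BLM 2, BLM 4, BLM+HBO 1 or BLM+HBO 3, and in limma.

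Tubb4a, a β isotype of the nervous system, was higher in every BLM+HBO mouse (13.0 to 15.9 CPM) than in any BLM mouse (8.34 to 12.6 CPM), with a log2 fold change of 0.35 ± 0.18 (SE; edgeR adjusted P = 0.522). Tubb1, the β isotype of platelets, had a log2 fold change of 0.58 ± 0.38 (SE; edgeR adjusted P = 0.610) and was highest in BLM+HBO 1 at 12.9 CPM. Of 9 platelet markers tested, 4 were called higher (3.4% of all tested genes) and 0 lower (2.89%). Of the 9, 7 had log2 fold changes above 0 and 2 below, with a median of 0.76. The summed level, led by Vwf, ran from 984 to 1163 CPM in BLM and 814 to 909.8 CPM in BLM+HBO. Such a sum follows the genes with the most reads and does not stand for the list. Gp1bb had no read, and the part of platelets in the Tubb1 values was not tested.

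The γ-, δ- and ε-tubulins, which serve centrosomes and basal bodies, were spread around 0. Tubg1 had a log2 fold change of -0.29, Tubg2 0.03, Tubd1 0.10 and Tube1 -0.0047, none past the thresholds. Tuba3a, Tuba3b and Tubal3 had 0 to 3 reads per mouse and were not tested.

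Genes that fold, modify and organise tubulin had medians near 0. The calls in these lists stand beside 2.89% of all tested genes called lower and 3.4% called higher. Of 22 folding genes (the chaperonin CCT, prefoldin and the tubulin cofactors), 0 were called and the median log2 fold change was -0.06. The gene with the most reads, Cct2, a CCT subunit, had a log2 fold change of -0.12. Of 24 tested modification genes (tyrosination, acetylation and glutamylation enzymes), 1 was called higher and 0 lower with a median of 0.03. That gene, Ttll10, a polyglycylase, had a log2 fold change of 0.80 (edgeR adjusted P = 0.462), and no gene of the list was called without BLM 1, BLM 2 or BLM+HBO 3. The gene with the most reads, the deacetylase Sirt2, had a log2 fold change of -0.07.

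Of 28 tested genes of microtubule dynamics, 0 were called higher and 1 lower with a median of -0.08. Kif2c, a depolymerising kinesin of mitotic centromeres, had 9.09, 8.62, 7.03 and 9.43 CPM in BLM and 3.62, 4.93 and 7.12 CPM in the BLM+HBO mice, a log2 fold change of -0.70 (edgeR adjusted P = 0.426). The groups overlapped, since BLM 3 lay just under BLM+HBO 3, and no gene of the list was called without BLM+HBO 1. The median of the list was then -0.03, and it was -0.13 without BLM+HBO 3. The gene with the most reads, Map4, a microtubule-stabilising protein, had -0.12. Of 8 genes of the γ-tubulin ring complex, which nucleates microtubules, 0 were called, the median was 0.02 and the gene with the most reads, Tubgcp3, had 0.21.

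Of the 14 other HIF signature genes, 0 passed both thresholds, 10 had log2 fold changes below 0 and the median was -0.31, so Tubb6 at -0.90 stood below all of them, the lowest being -0.59. At an unadjusted P below 0.05 alone, 5 of the 14 passed, all in the lower direction, beside 10.7% of all tested genes in either direction. The glycolytic genes Eno1, Ldha and Pgam1 and the cytokine Mif were named here after their values were seen. They were lower in every BLM+HBO mouse than in any BLM mouse, as were 4.72% of all tested genes. Their log2 fold changes were -0.56, -0.32, -0.46 and -0.30. The HIF signature was part of how Tubb6 was chosen, so its direction is not independent of Tubb6. Vegfa, its gene with the most reads, had 576, 714, 901 and 1010.1 CPM in BLM and 888, 911 and 1123.2 CPM in the BLM+HBO mice, a log2 fold change of 0.28 (edgeR adjusted P = 0.626) in the other direction from Tubb6.

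**Figure D5:**
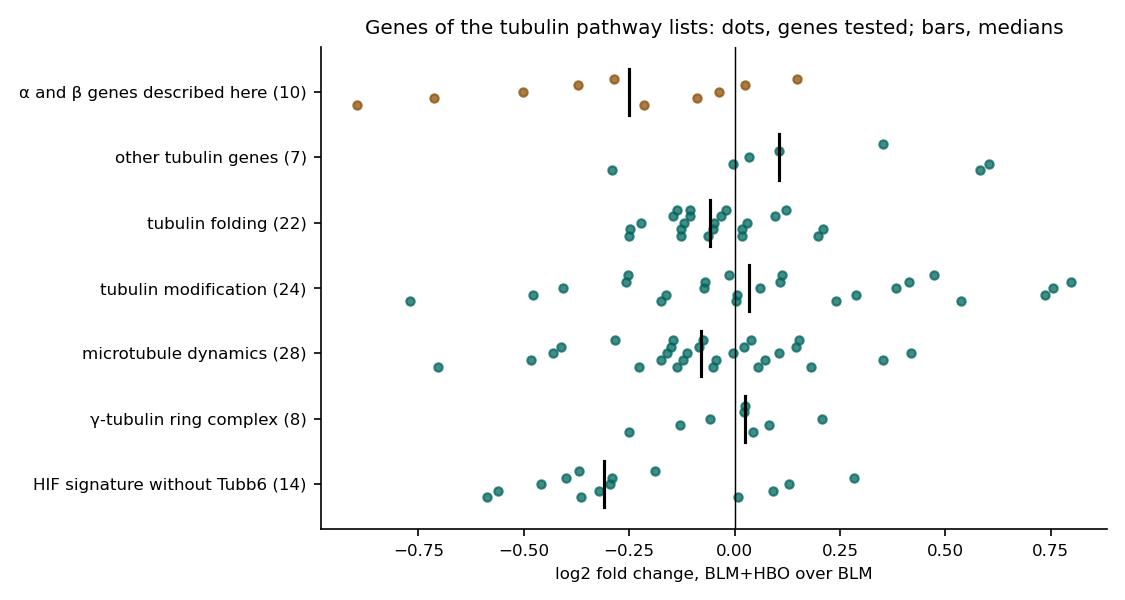
Log2 fold change of BLM+HBO over BLM for the 10 genes (brown) and for the tested genes of 6 related lists (green), 1 dot per gene, with the median of each list as a bar; numbers in brackets count the genes. The medians are -0.25 for the 10 genes, 0.10 for other tubulins, and -0.31 for the HIF signature without Tubb6.

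The promoters were read from RefSeq (GRCm38.p6), which matched 8 of the 10 genes. No promoter was matched for Tubb6 or Tubb2b, so the motif counts do not include them. The windows ran from 250 bases before to 50 after the start, and both strands were searched for ACGTG and GCGTG (both forms of the core of HIF sites, the latter also the core of aryl hydrocarbon receptor sites), for CCAAT (the box of the factor NF-Y), for GGGCGG (the box of the factor Sp1) and for TATAAA (the TATA box). ACGTG was in 1 of 8 (19.6% of 32851 promoters), GCGTG in 6 of 8 (32.4%), CCAAT in 5 of 8 (37.4%), GGGCGG in 7 of 8 (35.7%) and TATAAA in 2 of 8 (13.6%). The 250 bases before the start are shown for Tubb5 and Tuba1c, which did not overlap between the groups, and for Tubb4b, which had the most CCAAT letters. Motifs that lie wholly within these 250 bases are in capitals, on either strand. Those that reach into the last 50 bases of the window were counted but are not marked. They include the GGGCGG of Tubb5 and the TATAAA of Tubb4b.
Tubb5 (chr17:35838302-35838551, minus strand): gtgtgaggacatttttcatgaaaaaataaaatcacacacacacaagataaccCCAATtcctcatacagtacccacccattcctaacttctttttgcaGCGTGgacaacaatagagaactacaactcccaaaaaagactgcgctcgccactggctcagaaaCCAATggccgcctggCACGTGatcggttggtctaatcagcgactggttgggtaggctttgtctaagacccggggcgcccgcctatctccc
Tuba1c (chr15:99029641-99029890, plus strand): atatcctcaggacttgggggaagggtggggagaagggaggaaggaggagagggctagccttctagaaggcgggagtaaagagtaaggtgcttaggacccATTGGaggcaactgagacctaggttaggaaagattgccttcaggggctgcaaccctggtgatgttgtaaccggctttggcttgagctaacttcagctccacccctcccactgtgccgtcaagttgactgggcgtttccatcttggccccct
Tubb4b (chr2:25224703-25224952, minus strand): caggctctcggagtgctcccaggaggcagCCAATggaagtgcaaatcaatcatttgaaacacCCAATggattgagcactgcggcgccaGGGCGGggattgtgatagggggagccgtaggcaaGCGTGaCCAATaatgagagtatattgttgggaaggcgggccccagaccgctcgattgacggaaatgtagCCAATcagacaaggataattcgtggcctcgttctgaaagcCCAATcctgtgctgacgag

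The 5 CCAAT letters of the Tubb4b window compare with 2 in Tubb5 and 1 in Tuba1c. The Tubb5 window holds the palindrome CACGTG, which counts as ACGTG on both strands, and Tuba1c was the gene without GGGCGG. A match is a description of letters and was not tied to the values above.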

How the data were processed

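RNA from the lungs of 4 BLM and 3 BLM+HBO mice was sequenced as paired reads of 150 bases on an Illumina NovaSeq. The authors trimmed the reads, mapped them to GRCm38 with HISAT2 and deposited raw counts per gene from featureCounts at default settings, which ignore strand and discard multi-mapping reads and those shared by overlapping genes. Per the labels both tools were version 2.2.0, whereas the methods name another featureCounts version. Library totals ran from 18157161 to 26365969. Of the 10 genes, Tubb3 had the fewest reads.

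Gene symbols (55141 of 55401 genes) came from GENCODE vM21, with the same versioned identifier for 54349. Genes were filtered with filterByExpr (minimum count 10, total 15), leaving 17465, scaled by TMM and fitted with edgeR 4.0.16 in R 4.3.3 (quasi-likelihood test, Benjamini-Hochberg adjustment over all tested genes), with BLM as the reference. DESeq2 1.42.0 and limma 3.58.1 were alternatives. The fits were tested on simulated data. RPKM used the gene length in the count file. Neighbouring levels were compared by an exact sign-flip test over the 7 mice (smallest p 0.0156, 128 sign patterns). Sequences and motifs were read with Python 3.11.15. The 150-base windows and coding alignments used the longest coding transcript of each gene.

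The members and all gene lists were chosen with earlier results of these data known. Named were the 10 genes, all tested genes of the list of other tubulins, in each further pathway list up to 3 genes past both thresholds and the one with the highest mean CPM, the 5 genes nearest to Tubb6, and up to 3 abundant markers of a list. Eno1, Ldha, Pgam1 and Mif of the HIF signature were named outside this rule, after their values were seen. Dnai1 is listed as Dnaic1. Each library came from 1 mouse per the labels and counted as 1 replicate, and no pair within a group looked like 1 library deposited again (chi-square per gene at least 22.1). On the first principal component (37.3% of variance) BLM mice lay between -47.6 and -6.08, BLM+HBO 1 at 54.8, BLM+HBO 3 at 37.8 and BLM+HBO 2 at -1, nearest to BLM. The alternatives were other tests, scaling factors, filters, gene lengths and prior counts, a replicate block and leaving out each mouse. Some sequences are not reported here.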

Additional observations from a re-analysis of the deposited data

Results flagged for a closer look

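Of 43 sets of 4 BLM values examined, 2 held a mouse whose gap to the nearest of the others, as a part of the whole range, exceeded Dixon's critical value, and chance gives about 1 in 20 such sets. Col12a1, a gene with a profile near that of Tubb6, had a log2 CPM of 7.57 in BLM 1 and between 6.99 and 7.08 in the other BLM mice (gap over range 0.843). The total count of BLM 4 was 19002242, where the other BLM mice had 18436336 to 18452895 (gap over range 0.971). No tubulin gene had such a mouse among the BLM mice, and the 3 BLM+HBO mice were too few to be examined this way.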

How the results depend on the processing

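Tubb6 kept a log2 fold change below 0 under every alternative run, with -1.01 under the replicate block and -1.11 to -0.65 as each mouse was left out. Same-numbered mice deviated from their group means with correlations of -0.008, -0.066 and 0.161, and other pairs with -0.179 to 0.165. So few pairs cannot show whether the replicate numbers pair the mice. The replicate block called 1 of the 10 tubulins, as before, and 0 of the other tubulins, 4 modification genes and 1 other HIF signature gene. DESeq2 called 151 genes at adjusted P below 0.05, limma called 0 of the other tubulins, and without a filter on low counts 1940 genes passed the study's thresholds against 1098 with it, 387 passed the adjusted limit and 3 were modification genes. With the longest coding transcript as the length, the log2 steps were 0.33 from Tubb4b to Tuba1b, 0.14 from Tuba1b to Tuba1a, 0.0082 from Tuba1a to Tubb5 and 0.34 from Tuba1c to Tubb6. The causes were not tested. Leaving out single mice gave 659 (without BLM+HBO 1) to 1914 (without BLM+HBO 2) genes past the study's thresholds, with 706 without BLM 1, and 0 to 267 past the adjusted limit, with 267 without BLM+HBO 2 and 2 without BLM+HBO 3. It gave 1 to 4 of the 10 tubulins, the 4 without BLM+HBO 2 being Tubb6, Tubb3, Tubb2b and Tuba1c. Calls ran from 0 to 2 among the other tubulins (2 without BLM+HBO 2), 0 to 6 among modification genes (6 without BLM 3, 0 without BLM 1, BLM 2 or BLM+HBO 3), 0 to 2 among genes of microtubule dynamics (0 without BLM+HBO 1, 2 without BLM+HBO 3) and 0 to 4 among the HIF signature genes (4 without BLM+HBO 2, 1 without BLM 2, BLM 4 or BLM+HBO 3). The step from Tubb4b to Tuba1b ran from -0.0027 (without BLM+HBO 1) to 0.094, and that from Tubb6 to Tuba4a from 0.85 to 1.19, where the adjusted p missed 0.05 without any mouse other than BLM+HBO 1. Of the 5 genes nearest to Tubb6, 0 (without BLM+HBO 1) to 4 stayed, with 2 without BLM 1 and 3 without BLM 2, BLM+HBO 2 or BLM+HBO 3. The other alternatives moved no count of calls by over 1.5 times. Tuba1a (-0.13 to 0.06) and Tuba4a (-0.10 to 0.11), whose log2 fold changes were near 0, changed sign as mice were left out, as did the medians of the folding (-0.11 to 0.0061) and the γ-tubulin ring complex genes (-0.03 to 0.05).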
